A study of Mus musculus with 4 samples.

Results

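The set described here holds 8 of the 21911 protein-coding genes: Vhl, Egln1 and Egln3, which act in the breakdown of hypoxia-inducible factor (HIF), Hif1a, Epas1 and Arnt, which encode HIF subunits, Vegfa, a HIF target, and Ndrg1, a gene induced by low oxygen. A gene is called marked where a peak overlapped its annotated body by at least 1 bp. Of the 8, 7 were chosen by pathway, with earlier results of these data known. Ndrg1 was selected on the measured values themselves, for its many peaks in control cells and none in Setd2-KO cells. The numbers of peaks of Ndrg1 in the 2 lists are therefore a description and not a finding. The data are H3K36me3 ChIP-seq peaks of primary renal tubular epithelial cells (PTECs) from the kidney cortex of C57BL/6 mice. Setd2-KO PTECs had the genotype SETD2fl/fl KspCre/+, in which Cre recombinase is driven by the kidney-specific Ksp promoter. Control PTECs had the genotype SETD2fl/fl, with the same floxed alleles and no Cre. The labels give no age or treatment, and no source used here names the deleted exons. The labels, followed here, describe PTECs, although the methods in 1 place name lesions of mice that overexpress MYC.

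For each genotype there was 1 ChIP and 1 input library, so every difference below is between 2 libraries, without a replicate check and without a p-value. The deposited lists held 2732 peaks over 1436110 bp in Setd2-KO PTECs and 12242 peaks over 6427828 bp in control PTECs. As a measure of depth taken from the lists themselves, the genome-wide background was 6.54 overlapping fragments in Setd2-KO and 6.58 in control PTECs. In both lists the median fold enrichment of a peak over its local background was similar, at 3.85 in Setd2-KO and 3.83 in control PTECs. Of 16 proximal tubule markers, 5 carried a Setd2-KO peak and 13 a control peak, and none of 11 markers of later tubule segments, of 8 fibroblast and pericyte markers or of 8 immune markers carried one in either genotype. An endothelial list had 1 of 10 genes with a Setd2-KO peak and 3 of 10 with a control peak (Egfl7, Eng and Kdr), and a podocyte list had 0 of 5 and 1 of 5 (Podxl). Over all protein-coding genes, 7.37% carried a Setd2-KO peak and 19.5% a control peak, so a list of 8 genes without a peak says little by itself. The targeted gene Setd2 had no Setd2-KO peak and 5 control peaks over 3077 bp, which describes the mark on the gene and does not check the deletion.

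When oxygen is plentiful, prolyl hydroxylases of the Egln family modify the HIF alpha subunits, the von Hippel-Lindau protein (Vhl) then binds them, and its ubiquitin ligase complex sends them to the proteasome. When oxygen is scarce, the alpha subunits encoded by Hif1a and Epas1 escape this breakdown, pair with the Arnt protein and switch on genes of glucose use, vessel growth and stress. VHL is the tumour suppressor most often lost in human clear cell renal cell carcinoma, and SETD2, which lies on the same chromosome arm, encodes the enzyme that trimethylates lysine 36 of histone H3 over the bodies of transcribed genes.

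The H3K36me3 peaks of these genes can be read against the sequences they cover. The windows of 101 bases below are centred on peak summits, were read from the GRCm38 assembly and run 5′ to 3′ on the strand of the gene. In the first set capitals mark coding bases. It shows the strongest Ndrg1 peak at chr15:66946343-66946443, on the minus strand, the strongest Arnt peak at chr3:95490950-95491050, on the plus strand, the Hif1a peak at chr12:73942281-73942381, on the plus strand, and the Epas1 peak at chr17:86829054-86829154, on the plus strand. They are shown because their summits sit on or beside coding exons.
Ndrg1, end of exon 5: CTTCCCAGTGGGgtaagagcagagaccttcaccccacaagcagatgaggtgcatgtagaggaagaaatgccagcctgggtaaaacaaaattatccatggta
Arnt, start of exon 19: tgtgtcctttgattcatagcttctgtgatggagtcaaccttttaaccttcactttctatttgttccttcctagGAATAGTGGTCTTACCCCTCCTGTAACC
Hif1a, within exon 12: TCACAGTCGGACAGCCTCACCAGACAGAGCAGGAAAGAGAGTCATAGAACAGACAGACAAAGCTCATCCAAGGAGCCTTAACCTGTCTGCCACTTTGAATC
Epas1, end of exon 14: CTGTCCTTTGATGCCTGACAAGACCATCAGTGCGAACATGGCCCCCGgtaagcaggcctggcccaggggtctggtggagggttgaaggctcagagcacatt

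The second set holds summits without coding bases, all printed in lower case. The widest Ndrg1 peak (chr15:66967524-66967624, minus strand) and the Ndrg1 peak of highest pileup (chr15:66941332-66941432, minus strand) show what the mark covered in unique intronic sequence. The Ndrg1 peak of highest local background (chr15:66934762-66934862, minus strand) and the intronic Vhl peak (chr6:113628949-113629049, plus strand) lie in pyrimidine-rich repeats that the assembly masks over the whole window. The strongest Vegfa control peak (chr17:46029727-46029827, minus strand) and the Vegfa Setd2-KO peak (chr17:46016887-46016987, minus strand) are the 2 Vegfa sites described below.
Ndrg1, intron 1, widest peak: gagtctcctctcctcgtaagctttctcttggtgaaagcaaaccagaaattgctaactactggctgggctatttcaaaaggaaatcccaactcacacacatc
Ndrg1, intron 9, highest pileup: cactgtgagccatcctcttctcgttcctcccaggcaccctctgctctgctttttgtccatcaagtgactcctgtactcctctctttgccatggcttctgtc
Ndrg1, intron 14, highest background: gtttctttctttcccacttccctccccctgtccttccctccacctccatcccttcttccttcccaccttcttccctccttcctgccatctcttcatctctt
Vhl, intron 2: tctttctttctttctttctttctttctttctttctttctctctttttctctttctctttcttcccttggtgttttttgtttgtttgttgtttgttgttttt
Vegfa, Setd2-KO peak past the gene end: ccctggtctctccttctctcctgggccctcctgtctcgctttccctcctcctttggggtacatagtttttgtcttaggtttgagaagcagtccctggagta
Vegfa, intron 1, strongest control peak: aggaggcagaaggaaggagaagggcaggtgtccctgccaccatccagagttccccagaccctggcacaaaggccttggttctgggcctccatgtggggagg

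In Setd2-KO PTECs 1 of the 8 genes carried an H3K36me3 peak, with 1 peak over 60 bp of gene body, against 6 of the 8 genes with 32 peaks over 19745 bp in control PTECs. The share of all protein-coding genes was 7.37% in Setd2-KO and 19.5% in control PTECs. The 8 genes had a median length of 40530.5 bp, against 17433 bp over all protein-coding genes, and were not matched on length. Ndrg1, 1 of the 6 with control peaks, was selected for them. None of the 32 control peaks overlapped a Setd2-KO peak, which for the 17 in Ndrg1 follows from how that gene was selected. In the other genes none of 15 did, beside 12.9% of all control peaks, and no difference is read from so few peaks. Ndrg1 alone made up 17 of the 32 control peaks and 12977 of the 19745 bp, or 65.7% of the covered bases, and its lack of an overlapping peak was part of how it was selected. The other 7 genes together held 15 control peaks over 6768 bp.

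**Figure D1:**
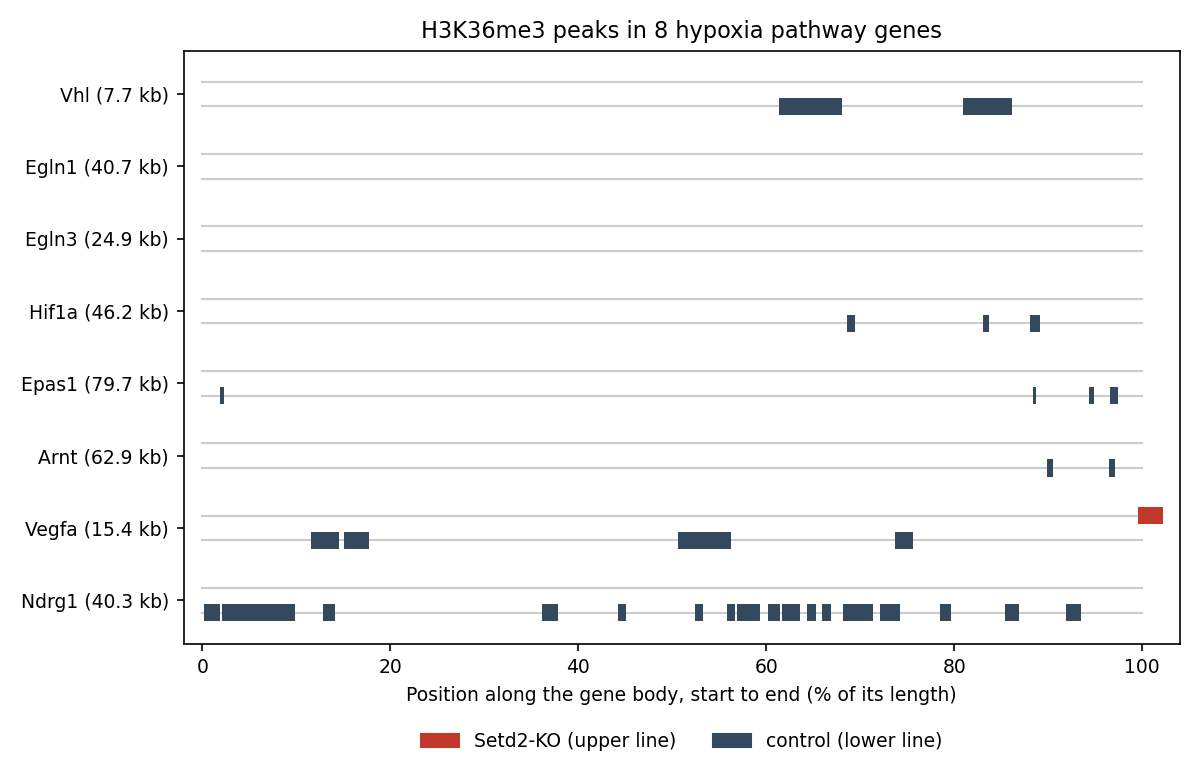
Position of each H3K36me3 peak along the 8 gene bodies, from start to end, as a percentage of gene length, with Setd2-KO peaks on the upper line and control peaks on the lower line of each gene. The 1 Setd2-KO peak sits at the end of Vegfa, and Egln1 and Egln3 are empty in both genotypes.

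Of the 3 genes of the degradation arm, 1 carried a control peak and none a Setd2-KO peak. Over all protein-coding genes the shares were 19.5% and 7.37%. Vhl (chr6:113623959-113631633, plus strand, 7675 bp), the substrate receptor of the ubiquitin ligase, had no peak in Setd2-KO PTECs and 2 peaks over 912 bp in control PTECs, which covered 11.9% of this short gene. The control summits had 28 and 25 overlapping fragments and fold enrichments of 3.29 and 3.43, both below the median of the control list. The peak with 28 fragments lay in intron 2, in the repeat printed above, with a local background of 7.81, and the other lay in the 3′ UTR of exon 3. Neither Egln1 (chr8:124908587-124949324, minus strand), the main oxygen-sensing hydroxylase, nor Egln3 (chr12:54178981-54203860, minus strand), a hydroxylase that HIF itself induces, had a peak in either genotype. The nearest Setd2-KO peaks lay 20.3 kb from Egln1, in Gnpat, and 485.7 kb from Egln3, in Eapp.

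A gene without a listed peak may still carry the mark below the listing limit. At the genome-wide background the lowest pileup that was listed was 23 fragments in Setd2-KO and 21 in control PTECs, so a weaker signal would not be listed. All 32 control peaks of the set reached 23 fragments, and for 12 of them, 9 in Ndrg1 and 3 in Vegfa, the exact 95% Poisson interval of the pileup lay wholly above 23. For the 20 others the interval reached down to that limit, so at those sites a Setd2-KO signal of similar size could go unlisted by counting error alone. These intervals cover counting error only, and the local background of Setd2-KO PTECs at these sites is not in the lists. The limit of 23 applies only at the genome-wide background, and a site on a higher background needs more fragments to be listed. In control PTECs the Ndrg1 peaks stood on local backgrounds between 6.69 and 13.0 fragments. An interval above 23 therefore does not show that the 9 Ndrg1 sites would clear the limit.

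**Figure D2:**
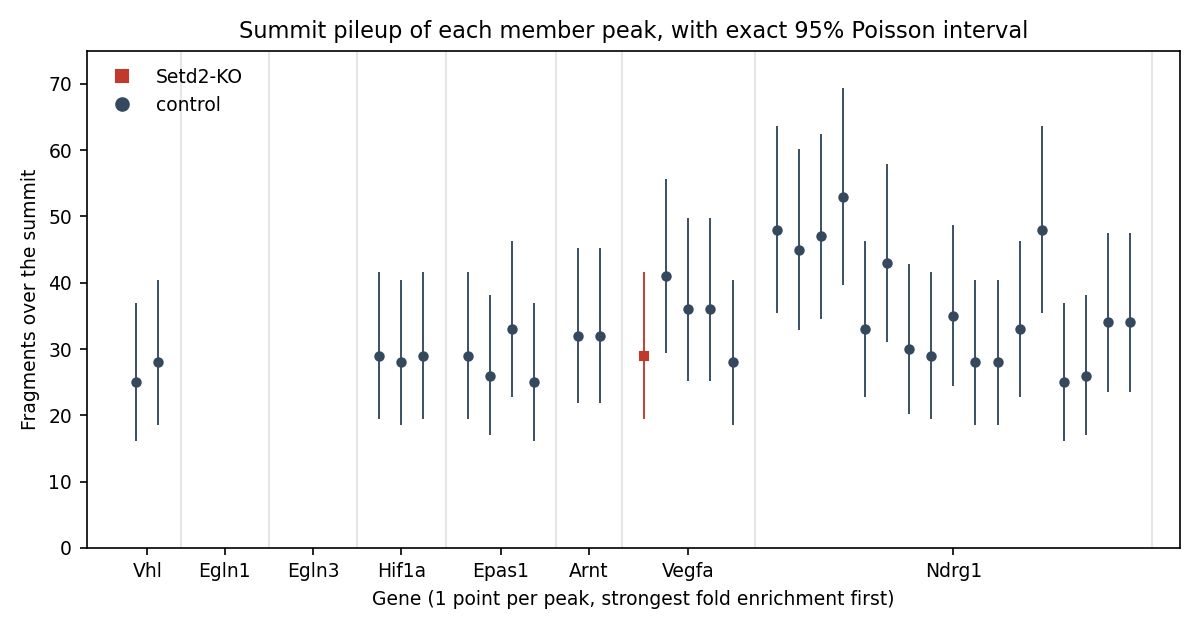
Overlapping fragments at the summit of each peak in the 8 genes, with exact 95% Poisson intervals, the Setd2-KO peak as a square and control peaks as circles, ordered within a gene by fold enrichment. Ndrg1 summits reach 53 fragments, and the highest summit of the other genes, in Vegfa, has 41.

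The genes of the HIF subunits carried few control peaks, mostly toward their ends. Hif1a (chr12:73901375-73947530, plus strand), the oxygen-regulated alpha subunit found in most cells, had no Setd2-KO peak and 3 control peaks over 1211 bp, or 2.62% of its body. Their summits, at 68.9%, 83.2% and 88.7% of the gene length, had 29, 28 and 29 fragments and fold enrichments of 3.96, 3.83 and 2.85. The last lay in coding exon 12, printed above, where the local background of 9.54 was 1.45 times the genome-wide value. The antisense gene Gm15283 overlapped all 3 peaks and the coding gene Gm49321 overlapped 2 of them, and ChIP reads carry no strand, so these peaks cannot be assigned to Hif1a alone.

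Epas1 (chr17:86753700-86833410, plus strand), the alpha subunit that dominates in clear cell renal carcinoma, had no Setd2-KO peak and 4 control peaks over 1839 bp, or 2.31% of its body. One of them lay 1.58 kb from the gene start in intron 1, with 33 fragments and a fold enrichment of 3.51 over a raised local background of 8.67. The others lay at 88.5%, 94.6% and 96.9% of the gene, with 25, 26 and 29 fragments, and each touched at least 1 of exons 9, 14, 15 and 16. No peak was listed over the long stretch between them. Arnt (chr3:95434388-95497240, plus strand), the shared beta subunit, had no Setd2-KO peak and 2 control peaks over 787 bp, or 1.25% of its body. Both had 32 fragments, with fold enrichments of 4.35 and 4.16, and touched exons 19 and 22 at 90.1% and 96.7% of the gene. The nearest Setd2-KO peaks to these genes lay 22.9 kb from Hif1a in Snapc1, 161.8 kb from Arnt in Mcl1, and 1990 kb from Epas1 in Lrpprc.

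Vegfa (chr17:46016993-46032369, minus strand, 15377 bp), the growth factor through which HIF drives vessel formation, was the only gene of the set with a Setd2-KO peak. This peak (chr17:46016654-46017052) had 29 fragments (exact Poisson interval 19.4 to 41.6), a fold enrichment of 3.98 and a -log10 q of 6.78. Of its 399 bp, 60 lay in the last exon and 339 beyond the annotated gene end, and its summit was 56 bp past that end. Vegfa is therefore counted as marked in Setd2-KO PTECs only by the edge of a peak. The 4 control peaks of Vegfa covered 2019 bp, or 13.1% of the gene, with 41, 36, 36 and 28 fragments and fold enrichments of 5.54, 4.88, 4.88 and 3.83. They lay inside the gene, at 16.9%, 12.9%, 54.6% and 74.8% of its length in intron 1 (the first 2), intron 5 and intron 6. All 4 stood on the genome-wide background. The Setd2-KO and control pileups come from different sites in 2 single libraries, and their heights were not compared. The closest control peak began 3688 bp from the Setd2-KO peak.

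Ndrg1 (chr15:66929318-66969640, minus strand, 16 exons in the transcript used) encodes a cytoplasmic stress-response protein that low oxygen and differentiation induce. It had no Setd2-KO peak and 17 control peaks over 12977 bp, or 32.2% of its body. By control bases it ranked 20 among all protein-coding genes, and by number of control peaks 23. Among the 2803 genes with a control peak and no Setd2-KO peak it ranked 2, between Ass1 with 21882 bp and Rgl1 with 11810 bp. The closest Setd2-KO peak was 304.9 kb away in Phf20l1.

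The 17 peaks were spread unevenly along Ndrg1. The first began 83 bp from the gene start and was followed by the widest peak of the gene (chr15:66965668-66968776, 3109 bp), with a fold enrichment of 5.79 and 47 fragments at its summit in intron 1. A peak of 28 fragments followed 5.52 kb from the start, and then a stretch of 8896 bp without a peak. Of the 17 peaks, 9 fell in a stretch of 8.81 kb that spans exons 4 to 10. With the gene cut into 5 equal parts, these held 3, 1, 4, 7 and 2 summits from start to end, and the last peak ended 2606 bp before the gene end. In the other genes of the set, the 15 control summits fell as 3, 0, 1, 3 and 8 over the same parts, so most of them lay in the last one, where Ndrg1 had 2.

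Peak height along Ndrg1 also varied. The summit pileup ranged between 25 and 53 fragments with a median of 34, and fold enrichment between 3.07 and 6.23 with a median of 3.67. In the other genes of the set the pileup ranged between 25 and 41 with a median of 29, and fold enrichment between 2.85 and 5.54 with a median of 3.83. The strongest Ndrg1 peak (chr15:66945701-66946689) had 48 fragments (exact Poisson interval 35.4 to 63.6) and touched exon 5. The next were the start-proximal peak (chr15:66968894-66969557), with 45 fragments and a fold enrichment of 5.98, the widest peak, and the peak of highest pileup (chr15:66940865-66942140), with 53 fragments (39.7 to 69.3) and a fold enrichment of 5.65 at exon 9. Gm2895, a gene not annotated as protein-coding, also overlapped the start-proximal peak, so that peak cannot be assigned to Ndrg1 alone. The weakest, 2 peaks with a fold enrichment of 3.07, had 34 fragments each, more than the 25 of the lowest summit, since both stood on a local background of 10.4. The intervals of the lowest and the highest summit, 16.2 to 36.9 and 39.7 to 69.3 fragments, did not overlap. These summits were picked as the extremes of the gene, and the intervals are not adjusted for that choice.

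**Figure D3:**
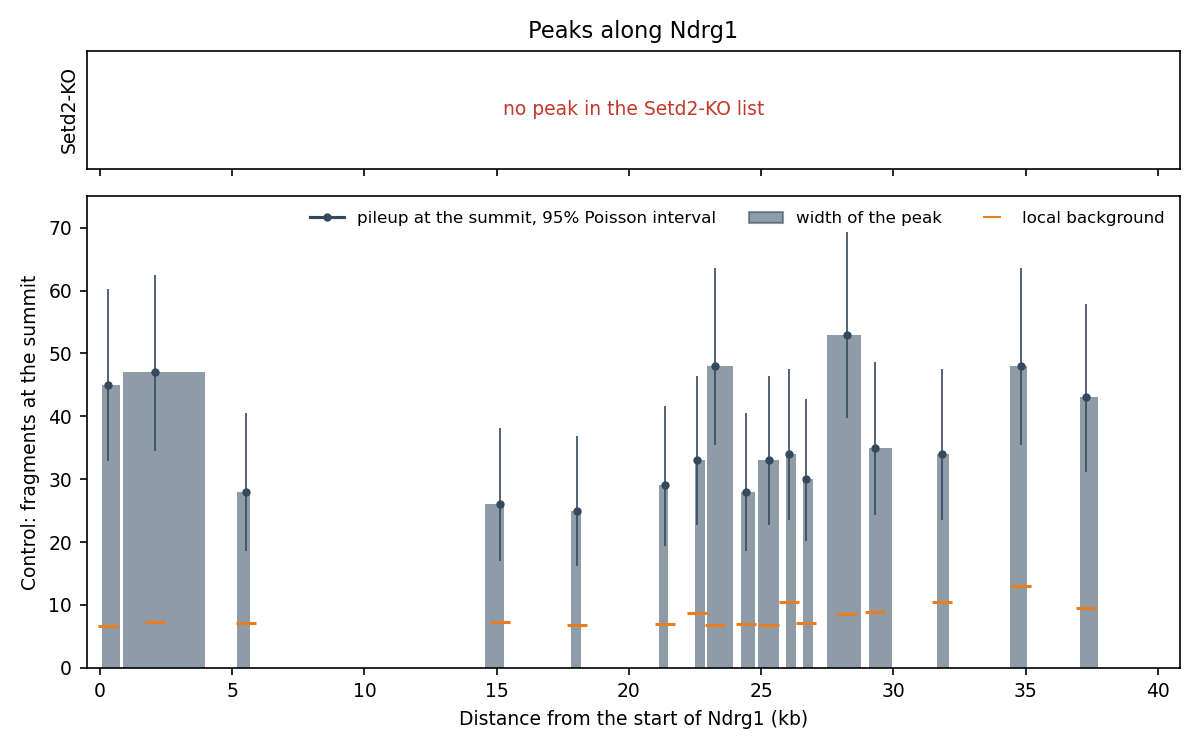
Peaks along Ndrg1 by distance from the gene start in kb. The upper panel is the Setd2-KO list, which has none, and the lower panel gives for control PTECs the fragments at each summit with exact 95% Poisson intervals, the width of each peak as a bar and its local background as a dash, between 6.69 and 13.0. A gap of 8896 bp separates the 3 start-proximal peaks from the other 14.

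Local background was raised over Ndrg1 itself. All 17 peaks stood above the genome-wide background of 6.58 by more than 1%, against 4 of the 15 peaks of the other genes and 45.2% of all control peaks. At 6 of the 17 it exceeded the genome-wide value by a factor of 1.3 or more, against 2 of 15 in the other genes and 13.7% of all control peaks. These 6 had fold enrichments between 3.07 and 4.17. Of the 4 strongest Ndrg1 peaks, 3 had a background of 1.04, 1.02 and 1.11 times the genome-wide value. At the peak of highest pileup it was 8.55 fragments, or 1.2996 times, just under the factor of 1.3. That peak had a fold enrichment of 5.65, so a raised background was not limited to the weaker Ndrg1 peaks. The highest background, 13.0, was at the pyrimidine-rich repeat in intron 14. The part of local background in the count of Ndrg1 peaks was not tested.

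The Ndrg1 peaks lay in introns. All 17 summits were intronic, 7 peaks touched an exon (exons 1, 4, 5, 7, 9, 10 and 12) and 10 touched none. Exons made up 7.16% of the gene and 4.28% of its covered bases. In Vegfa the exonic share of the covered bases was also below that of the gene, at 7.68% against 22.4%. It was above that of the gene in the others, at 43.6% against 36.4% in Vhl, 33.5% against 10.2% in Hif1a, 32.5% against 6.92% in Epas1 and 33.0% against 4.29% in Arnt. The medians over the Ndrg1 peaks were 48.6% GC, 5.61% masked repeat and 0.892 CpG per 100 bp, against 46.7% GC, 14.9% repeat and 1.14 CpG per 100 bp over all control peaks. The start-proximal peak was the richest in CpG, at 4.67 per 100 bp, and the start-proximal peaks of Epas1 and Vegfa, at 7.88 and 6.43, were richer still.

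The core of the hypoxia response element (ACGTG or GCGTG, searched on both strands, which includes the E-box CACGTG) was looked for in the same windows of 101 bases. It occurred in 11.9% of the 2725 windows of Setd2-KO peaks and 11.7% of the 12213 windows of control peaks on the assembled chromosomes. In the set it was absent from the 1 Setd2-KO window and present in 1 of 17 Ndrg1 control windows and 4 of 15 control windows of the other genes. The windows nearest the gene start in Ndrg1 (chr15:66969270-66969370, minus strand) and Epas1 (chr17:86755231-86755331, plus strand) are shown with the motif in capitals. A match of this length describes the sequence and not a site of HIF binding.
Ndrg1, intron 1, start-proximal: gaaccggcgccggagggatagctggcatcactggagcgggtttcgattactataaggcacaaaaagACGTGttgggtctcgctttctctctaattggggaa
Epas1, intron 1, start-proximal: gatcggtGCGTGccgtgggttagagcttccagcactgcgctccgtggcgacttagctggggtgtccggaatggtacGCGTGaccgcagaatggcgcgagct

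The neighbourhood of Ndrg1 was described by the listed peaks of its coding genes. Within 500 kb on either side lay 7 other protein-coding genes (Lrrc6, Tmem71, Phf20l1, Tg, Sla, Ccn4 and St3gal1). Phf20l1 had 1 Setd2-KO peak over 563 bp and 7 control peaks over 2950 bp, and the 6 others had no peak in either genotype. Ccn4, 6.12 kb from Ndrg1, was among these 6. Over all protein-coding genes 7.37% carried a Setd2-KO peak and 19.5% a control peak. No trait of the region is read from 7 genes.

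Genes with at least 10 control peaks usually had a Setd2-KO peak. Most were less heavily marked than Ndrg1, with a median of 6815 bp under control peaks against its 12977 bp. Of the 153 genes with at least 10 control peaks, 131 had a Setd2-KO peak and 22, or 14.4%, had none. Of the 49 with at least 15 control peaks, 6 had none: Ass1, Rgl1, Supt6, Smarca2, Col4a1 and Ndrg1. Over all genes with a control peak, 34.5% also had a Setd2-KO peak. Since Ndrg1 was selected for lacking one, its place among the 22 is a description. Among the 153 genes, 15 had a larger covered share of the body than the 32.2% of Ndrg1 (median 11.1%), and 139 had a larger exonic share of the covered bases than its 4.28% (median 17.4%). Ndrg1 was 1 of 6 of the 153 genes in which every control peak stood above the genome-wide background.

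Strong control peaks usually overlapped a Setd2-KO peak. The strongest Ndrg1 peak ranked 144 of 12242 control peaks by fold enrichment. Of the 144 control peaks at least this strong, 123, or 85.4% (Wilson 95% interval 78.7 to 90.3%, counting error only), overlapped a Setd2-KO peak. Of the 21 that did not, 1 was the Ndrg1 peak, and others lay in Cyp2j5 and Irx3. Between the weakest and the strongest Ndrg1 peak the share that overlapped was 11.9% of 11315 control peaks.

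**Figure D4:**
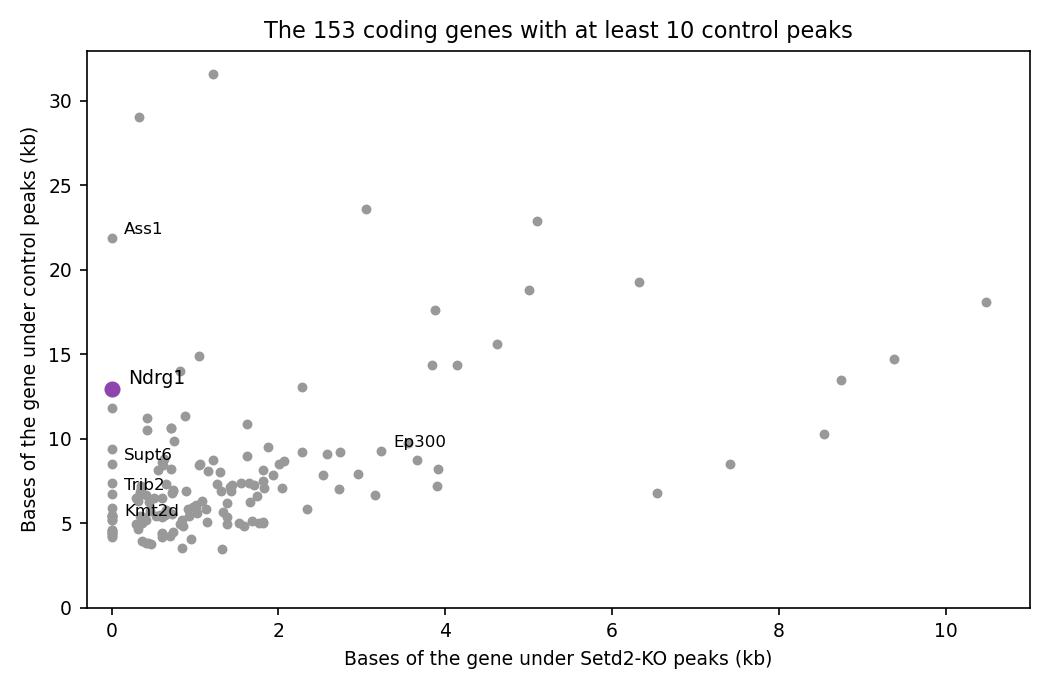
Bases under Setd2-KO peaks (horizontal axis, kb) and under control peaks (vertical axis, kb) in the 153 protein-coding genes with at least 10 control peaks, 1 point per gene. Ndrg1 is on the left edge with 0 bp in Setd2-KO PTECs and 12977 bp in control PTECs, as are Ass1, Supt6, Trib2 and Kmt2d, whereas Ep300 has 3226 bp and 9292 bp.

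The 5 genes most like Ndrg1, by distance over the log2 covered bases in both genotypes (plus 100 bp) and the log2 gene length, were Supt6, Ass1, Trib2, Csnk1a1 and Kmt2d. None of the 5 had a Setd2-KO peak. In control PTECs Supt6, a transcription elongation factor, had 17 peaks over 8528 bp, and Ass1, argininosuccinate synthase, had 27 over 21882 bp. Trib2, a pseudokinase, had 12 over 6746 bp, Csnk1a1, a casein kinase, had 7 over 5499 bp, and Kmt2d, a histone H3 lysine methyltransferase, had 10 over 5194 bp. The likeness uses the same values that selected Ndrg1 and 1 library per genotype.

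Beyond the 8 genes, 5 lists of the HIF pathway held 101 genes, of which 14 carried a Setd2-KO peak and 40 a control peak. Of these 40, 13 carried both, or 32.5%, beside 34.5% of all control-marked genes. Without the 8 genes the counts were 13 and 34 of 93. The median covered length of a marked gene was 492 bp in Setd2-KO PTECs and 872.5 bp in control PTECs over the lists, beside 472 bp and 908.5 bp over all protein-coding genes. As shares, 13.9% of the list genes carried a Setd2-KO peak and 39.6% a control peak. Both were above the 7.37% and 19.5% of all protein-coding genes. The lists were chosen with earlier results of these data known and were not matched on gene length or expression. These shares are therefore a description.

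Among 15 genes of oxygen sensing and HIF degradation, 2 carried a Setd2-KO peak (13.3%) and 8 a control peak (53.3%). Over all protein-coding genes the shares were 7.37% and 19.5%. Cul2, the scaffold of the Vhl ubiquitin ligase, had 1397 bp under Setd2-KO peaks and 2792 bp under control peaks. Hif1an, the asparaginyl hydroxylase that blocks co-activator binding, had 328 bp in Setd2-KO PTECs and 290 bp in control PTECs. The 4 with the most control bases were Cul2, Usp33, a deubiquitinase (0 bp in Setd2-KO PTECs and 1190 bp in control PTECs), Vhl and Os9 (0 bp and 715 bp). Egln2, the remaining hydroxylase of the family, had 22 bp of its body under 1 control peak that also touched Cyp2t4, and none in Setd2-KO PTECs. Of the 3 Egln genes none had a Setd2-KO peak, and Egln2 alone had a control peak. Most protein-coding genes had no peak either, so this is not read as a trait of the family.

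Of 13 HIF subunits and co-activators, 5 carried a Setd2-KO peak (38.5%) and 9 a control peak (69.2%), the highest shares among the 5 lists, beside 7.37% and 19.5% of all protein-coding genes. The median length of these 13 genes was 62853 bp, against 17433 bp over all protein-coding genes. The 5 with a Setd2-KO peak ranged between 2457 bp (Cited2) and 132670 bp (Crebbp) in length. The part of gene length in these shares was not tested. The 5 that carried a Setd2-KO peak were co-activators or partners and not HIF subunits. Ep300, the acetyltransferase that HIF recruits, had 7 peaks over 3226 bp in Setd2-KO PTECs and 19 over 9292 bp in control PTECs, and its relative Crebbp 581 bp and 2385 bp. Hsp90ab1, a chaperone of the alpha subunits, had 637 bp in Setd2-KO PTECs and 3062 bp in control PTECs. Cited2, which competes with HIF for Ep300, had 714 bp in Setd2-KO PTECs and 1220 bp in control PTECs, and Usf2, a partner at some HIF target genes, had 450 bp and 458 bp.

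Of 24 HIF targets in glucose metabolism, 3 carried a Setd2-KO peak (12.5%) and 7 a control peak (29.2%). Over all protein-coding genes the shares were 7.37% and 19.5%. Gpi1, the glycolytic isomerase, had 347 bp in Setd2-KO PTECs and 4407 bp in control PTECs, and Ldha, lactate dehydrogenase A, had 313 bp and 2985 bp. Gapdh had no Setd2-KO peak and 1143 bp in control PTECs, and Pfkfb3, which sets the level of the main activator of glycolysis, had none and 1100 bp. Gbe1, a glycogen branching enzyme, was the exception, with 293 bp under 1 Setd2-KO peak and no control peak. Of 18 targets in vessel growth, oxygen delivery and pH, Vegfa and Epo carried a peak, both in each genotype, or 11.1% of the list in each. Epo, erythropoietin, had 534 bp in Setd2-KO PTECs and 751 bp in control PTECs, but its peaks also touched Gigyf1 and Gnb2, which the annotated body of Epo spans.

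Of 31 targets in stress, autophagy, matrix and feedback, 2 carried a Setd2-KO peak (6.45%) and 14 a control peak (45.2%). Over all protein-coding genes the shares were 7.37% and 19.5%. Ndrg1, among the 14, was selected for its control peaks and its lack of a Setd2-KO peak. Plin2, a lipid droplet coat protein, had 1279 bp in Setd2-KO PTECs and 1426 bp in control PTECs, nearly equal lengths. Bhlhe40, a transcriptional repressor, had 362 bp in Setd2-KO PTECs and 1349 bp in control PTECs. After Ndrg1, the genes with the most control bases had no Setd2-KO peak: Kdm3a, a histone demethylase with 2233 bp, P4ha1, a collagen prolyl hydroxylase with 2110 bp, and Ccng2, a cyclin with 1625 bp. In the NDRG family of 4, only Ndrg1 and Ndrg3 carried control peaks, and Ndrg3 had 1 peak over 463 bp. No NDRG gene carried a Setd2-KO peak, and Ndrg1 was selected for having none. With 4 genes, no difference is read from the 7.37% and 19.5% of all protein-coding genes.

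**Figure D5:**
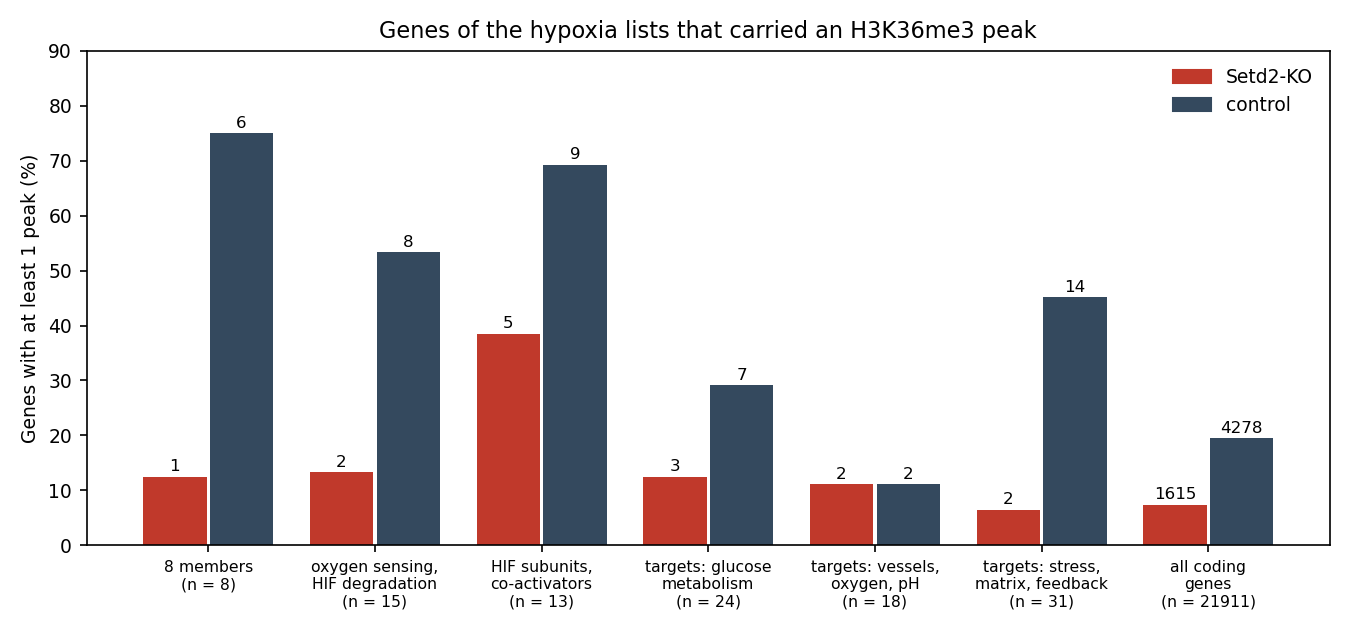
Percentage of genes with at least 1 H3K36me3 peak in Setd2-KO (left bar) and control (right bar) PTECs, for the 8 genes, the 5 HIF pathway lists and all protein-coding genes, with the number of genes above each bar. The list of vessel growth, oxygen delivery and pH is the only one with as many genes marked in Setd2-KO as in control PTECs, 2 and 2. These are Vegfa, counted in Setd2-KO PTECs by 60 bp at the edge of a peak, and Epo, whose peaks also touch Gigyf1 and Gnb2.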

How the data were processed

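H3K36me3 ChIP and input libraries of Setd2-KO and control PTECs were sequenced as single-end reads on a NextSeq instrument, 4 libraries in all. The submitters' processing notes name cutadapt 1.9.1 and Trimmomatic 0.35 for trimming, Bowtie2 2.2.6 for mapping to GRCm38 and MACS2 2.1.1 for peaks. The authors set each ChIP library against the input of the same genotype and deposited 1 peak list per genotype. The deposited pileup is a signal that counts the extended fragments overlapping at a summit. The fold enrichment the authors deposited is a ratio, pileup over local background, after a pseudocount of 1 is added to both. The deposited -log10 p and -log10 q values compare a ChIP library with its input and not the genotypes. The fold threshold that the study states exceeds the fold enrichment of most listed peaks, so it is unclear which filter gave the lists. The read totals that the study states for each library were not used here.

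Local background was recovered from pileup and fold enrichment, and its lowest value, within 1%, was taken as the genome-wide background. Gene bodies came from GENCODE M21, and for a symbol listed more than once the longest body was kept. Exons are those of 1 transcript per gene. Summit windows reached 50 bp to each side. Overlap counting was tested on simulated data and matched bedtools for 400 of 400 genes. Python 3.11.15, pandas 2.3.3 and pysam 0.24.0 were used. Genes named are the 8 members, Setd2, up to 4 genes of each list with the most control bases and up to 3 with the most Setd2-KO bases, all marked genes where no more than 5 were marked, the 5 genes nearest Ndrg1 and genes sharing a peak with a member. Egln2, Rgl1, Smarca2, Col4a1, Cyp2j5, Irx3, the neighbours of Ndrg1 and genes at the nearest Setd2-KO peaks were named after their values were seen. The members and lists were chosen with earlier results of these data known. The alternatives were stricter filters, other overlap rules, wider bodies and RefSeq bodies. Some genes that the rule names are left out.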

Additional observations from a re-analysis of the deposited data

How the results depend on the processing

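Of 103 alternative values, 74 stayed within 1.5 times the reported count or, for the percentage of genes, within its interval, and 29 did not. The 74 include some that started at 0 and could only stay there, such as stricter filters on the Setd2-KO peaks of Ndrg1. The 1 Setd2-KO peak and 1 gene of the set became 0, and the covered length 0 bp, when only fold enrichments from 4 or from 5 up were kept, when the midpoint had to lie in the gene and when most of the peak had to. With bodies extended by 1 kb or 5 kb it covered 399 bp. From a fold enrichment of 4 up, the set held 11 control peaks over 10009 bp in 3 genes (Ndrg1 6 peaks, Vegfa 3, Arnt 2), and 6 hypoxia list genes carried a Setd2-KO peak and 22 a control peak. From 5 up, it held 5 control peaks over 6444 bp in 2 genes (Ndrg1 4 peaks, Vegfa 1), and 1 and 9 list genes were marked. The share of control-marked genes with a Setd2-KO peak was 23.9% at 4, 20.4% at 5 and 32.3% at a -log10 q of at least 5. Leaving out peaks that touch another coding gene left Hif1a with 1 control peak. RefSeq bodies, an alternative chosen after seeing the data, gave the same counts in the set. Ndrg1, selected for having no Setd2-KO peak, gained none with bodies extended by 1 kb or 5 kb or with RefSeq bodies, and stricter filters could not add one. No paired analysis was possible because each genotype had 1 ChIP library, and no library could be left out. Weak signal under the listing limit, 23 fragments in Setd2-KO and 21 in control PTECs at the genome-wide background, cannot be seen in peak lists.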

Other observations

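A network that meets HIF from outside was described from a list of the same kind. Of 8 genes of the MYC and MAX network, which shares target genes with HIF, none carried a Setd2-KO peak and 5 a control peak: Mlxip with 1201 bp, Max with 991 bp, Mlx with 901 bp, Mxd4 with 729 bp and Mga with 436 bp. With 1 library per genotype these counts have no replicate check, and they lie beside 7.37% of all protein-coding genes with a Setd2-KO peak and 19.5% with a control peak.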
